A study of Papio anubis with 767 samples.

Results

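The heat shock chaperones described here are 10 genes chosen by symbol: HSP90AA1, HSP90AB1, FKBP4, HSPA8, HSPH1, DNAJB1, BAG3, HSPB1, HSPD1 and HSPE1. Of these, 9 had a row among the 29202 rows of the expression table. HSPA8 had no row under its symbol and is not analysed here. HSPE1, which encodes the small cap of the mitochondrial chaperonin, held 2 reads in all, in 2 of 767 libraries with at most 0.35 FPKM, and was not tested. The other 8 genes had a mean of at least 1 FPKM (reads scaled by the authors to transcript length and library depth) in some tissue: 7 of them in all 64 tissues and HSPB1 in 45.

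PolyA RNA was sequenced from 64 tissues of 12 male olive baboons (labelled Papio anubis hamadryas, 5 to 6 years old), without any treatment or altered gene. The animals lived in a light-dark cycle of 12 h each, received food at 2 set times and were killed and perfused with ice-cold solution at 12 times, every 2 h from lights on (zeitgeber time 0, ZT0) to ZT22. Each time is 1 animal, so a difference between times cannot be told apart from a difference between animals. The tissues comprise 22 brain regions, 35 peripheral tissues and 7 tissues of the eye or of glands. Each tissue has 12 libraries except the iris with 11.

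Heat shock proteins bind unfolded or partly folded proteins and keep them from aggregating. The heat shock factor HSF1 raises their transcription when unfolded protein accumulates, and body temperature and feeding are known to move several of them over the day. HSP90AA1 and HSP90AB1 encode the inducible and the constitutive form of cytosolic HSP90, which holds kinases and steroid receptors ready for activation, and FKBP4 (FKBP52) is one of its co-chaperones on steroid receptors. HSPH1 (HSP110) exchanges the nucleotide of HSP70, DNAJB1 (HSP40) delivers clients to it, and BAG3 links HSP70 and small heat shock proteins to autophagy. HSPB1 (HSP27) is a small heat shock protein known for its binding to the cytoskeleton, and HSPD1 (HSP60) is the barrel of the mitochondrial chaperonin.

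Depth ran from 32790 to 31.8 M assigned reads per library, with a median of 8.26 M and 1 library under 1 M. Over all libraries, reads of single genes summed to 10471368 for HSP90AB1, 8916214 for HSP90AA1, 901188 for HSPH1, 631183 for DNAJB1, 610510 for FKBP4, 263657 for HSPD1, 243590 for BAG3 and 71807 for HSPB1, so HSPB1 is the least precisely counted. The genome holds near-identical copies of some chaperone genes, and how reads shared between copies were counted is not given in the sources used here, which leaves the levels of HSP90AA1, HSP90AB1, HSPD1 and HSPB1 uncertain. By their expression, 65 libraries correlated below 0.9 with the median of their tissue. A further comparison of the animal-specific pattern of each library placed 93 libraries closest to an animal other than the labelled one, among them all 12 of the ascending colon, descending colon, duodenum, stomach fundus, testicles and thyroid, each of which was closest to the animal of the preceding time.

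The first question was how high each chaperone is in each tissue. HSP90AA1 was the most abundant, with a median of 496 FPKM over the tissue means, followed by HSP90AB1 at 207 FPKM. FKBP4 (56.8 FPKM), DNAJB1 (44.6 FPKM) and HSPH1 (34.3 FPKM) lay in the middle, and HSPD1 (14.3 FPKM), BAG3 (10.8 FPKM) and HSPB1 (2.90 FPKM) were lowest. The range over tissues was narrow for HSP90AB1, at a ratio of 6.02 between the highest and the lowest tissue mean, and wide for BAG3 (127). Neighbours in the order of tissues rarely stood apart: intervals of 1 SD around the means separated 1 of 63 neighbouring pairs for FKBP4, HSP90AA1 and HSPD1, and 0 of 63 for each of the other 5 genes. In bulk tissue, fewer cells of a type and less RNA per cell cannot be told apart.

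**Figure D1:**
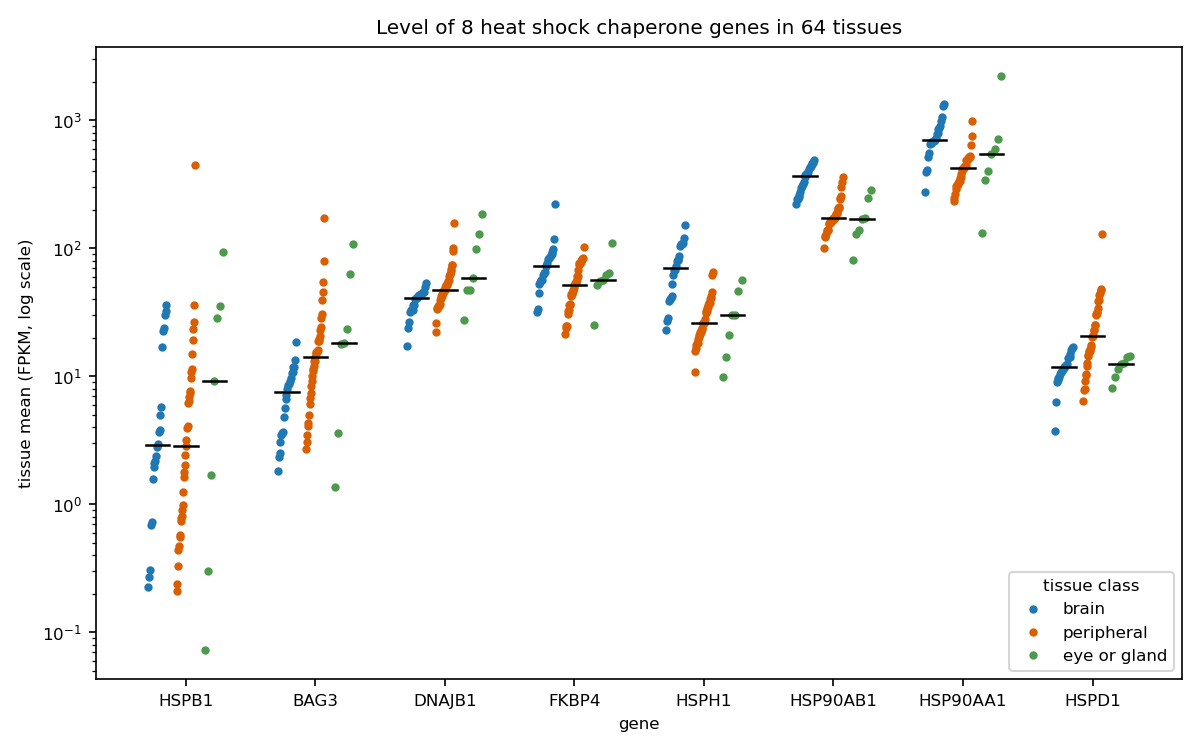
Tissue means of 8 chaperone genes in FPKM on a log scale, 1 point per tissue, with black bars at the median of each tissue class. HSP90AA1 and HSP90AB1 have the highest medians in FPKM, HSPH1 sits higher in brain, and HSPB1 spreads most, with the aorta at 450 FPKM.

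HSP90AA1 was highest in the retina, where the libraries ran from 1419 through a median of 2307 to 3347 FPKM (mean 2234 ± 589, SD, n = 12). The putamen (1336 ± 197 FPKM) and the thalamus (1293 ± 358 FPKM) came next. The lowest retinal library lay above the putamen's mean but below its highest library, 1547 FPKM, so the ranges of these tissues overlapped. At the low end stood the pancreas (235 ± 45.6 FPKM) and the iris (131 ± 156 FPKM, n = 11).

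HSP90AB1 was highest in nerve tissue. The prefrontal cortex had 404 to 634 FPKM with a median of 474 (492 ± 74.1, SD, n = 12), the hippocampus 466 ± 61.9 FPKM and the paraventricular nuclei 464 ± 113 FPKM, which do not differ beyond their spread. The pancreas (100 ± 21.1 FPKM) and the cornea (81.8 ± 6.23 FPKM) were lowest.

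In FPKM HSP90AA1 was above HSP90AB1 in 728 of 767 libraries, and its mean ratio to HSP90AB1 was above 1 in 63 of 64 tissues. Over all libraries HSP90AB1 had more reads, so a ratio above 1 depends on the transcript lengths used for FPKM. The order of tissues by this ratio does not depend on them. The retina had a ratio of 16.3 ± 4.34 (SD, n = 12), from 9.04 to 22.4, against 5.69 ± 3.34 in the optic nerve head, 5.52 ± 1.36 in the putamen and 4.15 ± 0.47 in the cornea. The ventromedial hypothalamus (1.12 ± 0.25) and the iris (0.70 ± 0.71, n = 11) were lowest. Averaged per animal, the log2 ratio was 1.01 ± 0.23 in brain and 1.18 ± 0.17 in periphery. It was lower in brain in 12 of 12 animals, by 0.17 ± 0.13 (SD; exact paired permutation test, two-sided, p = 0.000488, the smallest that 12 animals allow).

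FKBP4 stood out in the cerebellum, from 161 through 221 to 280 FPKM (lowest, median and highest; 224 ± 44.9, SD, n = 12). The thalamus (118 ± 34.5 FPKM) and the pineal gland (111 ± 33.8 FPKM) followed. The highest thalamic library reached 174 FPKM and overlapped the lowest cerebellar library. Axillary lymph nodes (23.7 ± 9.99 FPKM) and white adipose tissue (21.5 ± 4.73 FPKM) were lowest.

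HSPH1 was highest in the putamen, where libraries ran from 105 to 194 FPKM with a median of 153 (152 ± 25.3, SD, n = 12). The hippocampus had 121 ± 22.99 FPKM and the thalamus 110 ± 31.7 FPKM. All 10 tissues with the highest HSPH1 means were brain regions. The pancreas (10.8 ± 2.92 FPKM) and the iris (9.85 ± 7.04 FPKM, n = 11) were lowest.

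DNAJB1 had a different order, led by the cornea. The cornea had 137 to 245 FPKM with a median of 184 (184 ± 36.2, SD, n = 12), the oesophagus 100.4 ± 13.0 FPKM and the skin 95.2 ± 26.8 FPKM. In mesenteric fat the libraries ran from 49.4 FPKM (ZT0) to 513 FPKM (ZT12), so its mean of 159 ± 137 FPKM rests on few libraries. The iris ranked next (131 ± 112 FPKM, n = 11), with libraries from 41.1 FPKM at ZT0 to 345 FPKM at ZT6. Without libraries far from their tissue, the pineal gland had 108 ± 30.9 FPKM (n = 10). In the same way white adipose tissue had 74.8 FPKM, pericardial fat 52.0, perirenal fat 47.7, subcutaneous fat 41.7 and omental fat 40.0 FPKM. The lateral hypothalamus was lowest (17.4 ± 9.75 FPKM), followed by the gastrocnemius (22.2 ± 8.48 FPKM).

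BAG3 was highest in the gastrocnemius, a limb skeletal muscle, with 82.3 to 273 FPKM and a median of 181 (174 ± 59.3, SD, n = 12). Next were the cornea (108 ± 27.5 FPKM) and abdominal muscle (79.3 ± 24.6 FPKM), and the heart had 45.8 ± 26.8 FPKM. The visual cortex (1.83 ± 1.21 FPKM) and the retina (1.36 ± 1.05 FPKM) were lowest. The lowest gastrocnemius library exceeded every library of the visual cortex (at most 3.76 FPKM) and of the retina (at most 4.04 FPKM).

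HSPB1 had its highest mean in the aorta: 227 to 752 FPKM with a median of 416 (450 ± 165, SD, n = 12). Smooth muscle markers summed to 13099 to 33456 FPKM in these libraries, over the 4 listed genes with a row. The iris ranked second with 93.6 ± 252 FPKM, but this mean rests on its libraries of ZT6 (118 FPKM) and ZT8 (847 FPKM), both of them far from the iris median. In those 2 libraries the summed smooth muscle markers were 19561 and 24934 FPKM, against 1335 to 5824 FPKM in the other 9, and their part in the HSPB1 level was not tested. Libraries labelled adrenal cortex and stomach fundus held such markers at medians of 22926 and 16357 FPKM with far less HSPB1, 15.0 ± 15.7 and 11.3 ± 15.2 FPKM. Oesophagus (36.3 ± 35.4 FPKM), supraoptic nucleus (36.1 ± 19.3 FPKM), pineal gland (35.3 ± 17.2 FPKM) and lateral hypothalamus (32.2 ± 17.3 FPKM) came next. Axillary lymph nodes (0.21 ± 0.26 FPKM) and retina (0.07 ± 0.15 FPKM) were lowest.

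HSPD1 was highest in libraries labelled adrenal medulla, which ran from 17.4 FPKM at ZT0 to 181 FPKM at ZT20, with a median of 144 (129 ± 52.1, SD, n = 12). CYP17A1, an enzyme of steroid synthesis in the adrenal cortex, was at 386 FPKM in the ZT0 library and at 2928 to 13103 FPKM in the other 11. TH, which makes catecholamines in the medulla, was at 1146 FPKM at ZT0 and at most 81.8 FPKM in the others. Thus the 11 libraries high in HSPD1 carried cortical genes, and the single library with high medullary genes had the lowest HSPD1. Libraries labelled adrenal cortex had 9.27 ± 2.65 FPKM of HSPD1 and had the steroid gene STAR at only 0.20 ± 0.23 FPKM. Their smooth muscle markers summed to a median of 22926 FPKM and their stomach epithelium markers reached 196057 FPKM, close to the stomach fundus at 16357 and up to 191909 FPKM. They were kept among the peripheral tissues under their label.

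Libraries labelled smooth muscle repeated this pattern. HSPD1 was 125 FPKM at ZT2, 155 FPKM at ZT10 and 175 FPKM at ZT12, against 3.79 to 19.2 FPKM at the other 9 times, and the same 3 libraries had CYP17A1 at 6468, 7399 and 7400 FPKM. These 3 and the library of ZT0 correlated with the adrenal medulla library of the same time at r from 0.904 to 0.932 (over genes centred on their mean), and the other 8 at r of at most 0.498. In 3 of those 8, at ZT6, ZT20 and ZT22, that was still above the median r with their own tissue. Without the 4 libraries of high r, picked after their values were seen, HSPD1 averaged 8.04 ± 3.09 FPKM (SD, n = 8), where all 12 gave 44.9 ± 65.4 FPKM. Liver (48.1 ± 18.4 FPKM, or 54.7 ± 10.9 without its 2 libraries far from the tissue median, n = 10) and perirenal fat (46.9 ± 22.6 FPKM) ranked next among all tissues. The supraoptic nucleus (6.27 ± 2.34 FPKM) and the lateral hypothalamus (3.74 ± 2.44 FPKM) were lowest.

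Genes with the most similar tissue pattern were sought over the 64 tissue means among 10558 genes. For HSP90AB1 the closest was AHSA1, the activator of the HSP90 ATPase (Pearson r = 0.83), followed by CAMK2A and ACYP2. For HSP90AA1 they were HSPA4 (r = 0.81), another HSP110-type exchange factor, AGTPBP1 and HSPH1. For HSPD1 they were IARS2 (r = 0.82), HSPA9 (r = 0.79), the mitochondrial HSP70, and NARS2. The others were NKRF, DNAJC7 and DPP10 for HSPH1 (r up to 0.80), LIMK2, CKAP4 and TYSND1 for DNAJB1 (up to 0.75), SNX21, FBXW5 and PLEKHH3 for HSPB1 (up to 0.91), MFN2, EIF4G1 and BCKDK for BAG3 (up to 0.84), and SNAP47, CCDC13 and DDAH1 for FKBP4 (up to 0.73). Between members, HSPH1 correlated with HSP90AA1 (r = 0.77) and HSP90AB1 (r = 0.77), and BAG3 with HSPB1 (r = 0.57). These are descriptions over tissues that share the same 12 animals.

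The second comparison set brain against periphery. Of the 8 genes, 7 differed in level, 4 of them higher in brain and 3 lower, in limma on log2(FPKM + 0.5) with each animal's brain regions paired with its own peripheral tissues. Across all genes 91.5% were called, 44.1% as higher and 47.4% as lower in brain, so a call by itself sets no gene apart. HSPH1 and both HSP90 genes were higher in brain, and BAG3, HSPD1 and DNAJB1 higher in periphery.

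HSPH1 averaged 5.94 ± 0.22 (log2 level, SD over 12 animals) in brain and 4.68 ± 0.23 in periphery, a difference of 1.26 ± 0.07 (SE, adjusted p = 1.04e-11), higher in 12 of 12 animals. HSP90AB1 was higher in brain by 0.95 ± 0.04 (adjusted p = 1.45e-14) and HSP90AA1 by 0.78 ± 0.05 (adjusted p = 1.21e-11). FKBP4 was higher by 0.51 ± 0.05 (adjusted p = 6.88e-09). All 4 were higher in brain in 12 of 12 animals. BAG3 was lower in brain by a log2 difference of -1.08 ± 0.05 (adjusted p = 8.4e-13), HSPD1 by -0.82 ± 0.05 (adjusted p = 6.5e-11) and DNAJB1 by -0.40 ± 0.05 (adjusted p = 1.96e-07), each in 12 of 12 animals. HSPB1, at 1.75 ± 0.54 in brain and 1.49 ± 0.86 in periphery, had a difference of 0.26 ± 0.12 that missed the threshold (adjusted p = 0.0505, higher in 9 of 12 animals). It passed without the libraries far from their tissue (0.35, adjusted p = 0.00733) and without the animal of ZT0, ZT2 or ZT4. It also passed without the 3 tissues labelled adrenal cortex, adrenal medulla and smooth muscle (0.29, adjusted p = 0.0201), while without the libraries that matched another animal the difference was 0.05 (adjusted p = 0.738).

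Other genes of the chaperone network, on lists chosen with earlier results known, divided in the same comparison. Of all genes 44.1% were called higher and 47.4% lower in brain. Of 21 tested HSP70-system genes 15 were higher in brain and 6 lower. HSPA12A (log2 difference 2.48), HSPBP1 (1.95) and DNAJB2 (1.91), a neuronal J-domain protein, were higher, and ST13 lower (-0.97). Of 12 HSP90 co-chaperones 8 were higher and 4 lower, among them FKBP8 (2.45) and AHSA1 (0.71) higher and the glucocorticoid-induced FKBP5 lower (-2.41). Of 8 mitochondrial chaperones and proteases 5 were lower, with CLPX at -1.34 and HSPA9 at -0.32. HSF4 was higher in brain by 2.71. The 5 immediate early genes listed as handling markers were all lower in brain, FOS by a log2 difference of -1.64 and JUN by -0.997, and their part in the chaperone levels was not tested.

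A further comparison set heart, gastrocnemius and abdominal muscle against the other 32 peripheral tissues, since BAG3 and small heat shock proteins are known for maintaining the contractile apparatus. All 8 genes were called, 7 higher and 1 lower in striated muscle, where 86.9% of all genes were called, 37.4% as higher and 49.5% as lower. The skeletal muscle markers summed to a median of 95598 FPKM in the gastrocnemius and 129525 FPKM in abdominal muscle, and the cardiac markers to 4842 FPKM in the heart, as their labels say. The median difference over all genes was -0.16, and -0.01 after quantile scaling of the libraries.

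BAG3 averaged 6.28 ± 0.62 (log2 level, SD over 12 animals) in striated muscle and 3.46 ± 0.41 elsewhere, 2.82 ± 0.09 higher (SE, 7.07-fold on this scale, adjusted p = 9.52e-15) in 12 of 12 animals. HSPB1 was 1.91 ± 0.19 higher (adjusted p = 5.24e-08) in 12 of 12 animals. HSP90AB1 (0.99 ± 0.05), HSPH1 (0.68 ± 0.11) and FKBP4 (0.60 ± 0.06) were higher as well, and quantile scaling left HSP90AB1 at 0.26, HSPH1 at 0.52 and FKBP4 at 0.29. HSP90AA1 was higher by 0.57 ± 0.07 (adjusted p = 7.59e-07) but lower after quantile scaling, at -0.39 (adjusted p = 5.06e-05), so its direction depends on the scaling. HSPD1 was 0.15 ± 0.05 higher (adjusted p = 0.0141, 10 of 12 animals) and was not called without the pairing of tissues by animal, the replicate block (adjusted p = 0.167). DNAJB1 was lower, at -0.95 ± 0.07 (adjusted p = 1.25e-09), in 12 of 12 animals.

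Among 5 tested genes listed by symbol as small heat shock proteins 4 were higher in striated muscle and 1 lower. Of all genes 37.4% were called higher and 49.5% lower there. HSPB3 (log2 difference 7.52), HSPB7 (7.01), HSPB8 (4.59), the partner of BAG3, and HSPB6 (2.70) were higher, and HSPB11 was lower (-0.22). All 8 mitochondrial chaperones and proteases were higher, with DNAJA3 at 1.62 and HSPA9 at 1.08. Of 21 HSP70-system genes 14 were higher and 5 lower, led by DNAJA4 (4.13), DNAJB5 (2.84) and DNAJB4 (2.54). The other HSF1-induced genes leaned the other way, with 4 of 5 lower, among them SERPINH1 (-1.13), the collagen chaperone, and HMOX1 (-1.35). All 5 immediate early genes were higher in striated muscle, NR4A1 by 2.65, JUN by 1.02 and FOS by 0.88, and their part here was not tested either.

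**Figure D2:**
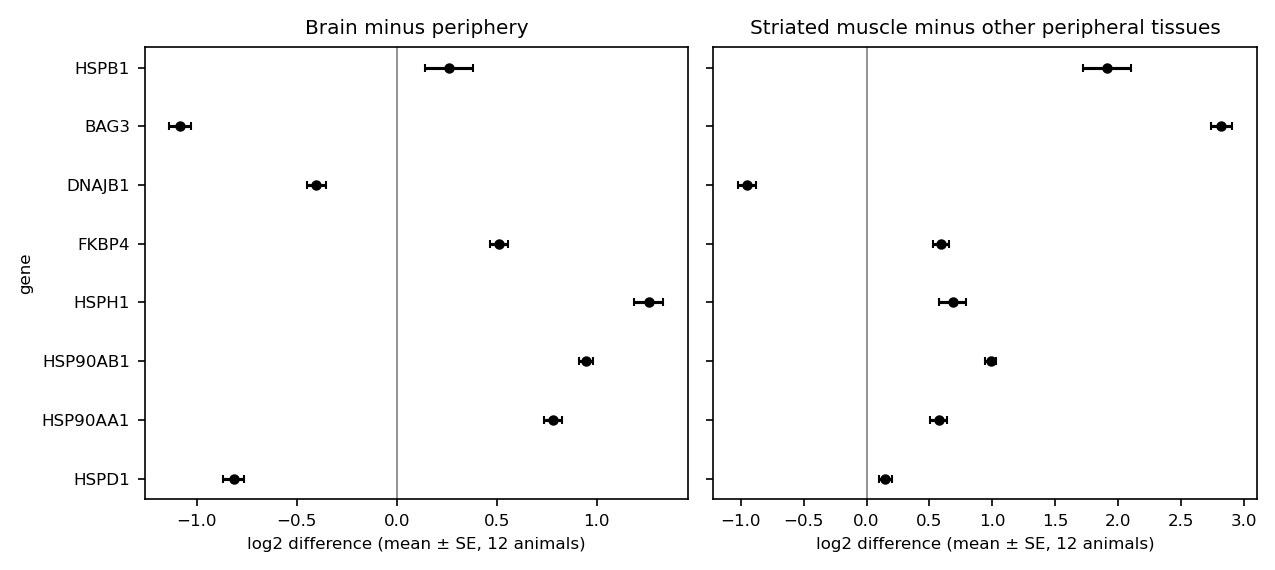
Difference in mean log2(FPKM + 0.5) between brain and periphery (left) and between striated muscle and the other 32 peripheral tissues (right), as mean ± SE over 12 animals. HSPH1 is 1.26 higher in brain and BAG3 2.82 higher in striated muscle, while DNAJB1 lies below 0 in both panels.

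The last question was how the chaperones follow the time of day. A cosine and a sine of 24 h were fitted to each animal's mean deviation from the tissue means over 63 tissues, and the amplitude is the log2 rise from the middle to the peak. Of the 8 genes 7 were called, 5 of them peaking by day and 2 by night. Of all 12055 genes 63.1% were called, 37.2% with a light-phase peak and 26.0% with a dark-phase peak, so the members' count lies near the background. After quantile scaling 3555 of 8501 called genes peaked in the light phase, against 4481 of 7610 here, and of the 8 genes 6 were called, 4 by day and 2 by night. The median amplitude was 0.28 for the 8 genes and 0.18 for all genes tested.

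BAG3 had its fitted peak at ZT5.60 ± 0.44 (SE) and an amplitude of 0.51 ± 0.06 (SE, 2.02-fold from trough to peak, adjusted p = 0.000285). Its animal values ran from -0.49 (ZT18) through 0.00 to 0.63 (ZT4). The animals of ZT2 to ZT8 were above the middle, and those of ZT14 to ZT22 below it. DNAJB1 had an amplitude of 0.41 ± 0.06 and a peak at ZT5.93 (adjusted p = 0.000435), with animals from -0.52 (ZT18) to 0.53 (ZT4). HSPB1 had the largest amplitude of the 8, 0.87 ± 0.11 with a peak at ZT6.22 (3.35-fold, adjusted p = 0.000285), and its animals ran from -1.004 (ZT22) to 1.07 (ZT6). The order of these 3 peaks was not tested. Of all genes called body-wide 55.8% peaked at ZT4 to ZT8, as these 3 did.

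FKBP4 had its peak at ZT7.85 ± 0.42 and an amplitude of 0.38 ± 0.04 (1.70-fold, adjusted p = 0.000285) and animals between -0.41 (ZT22) and 0.41 (ZT6). HSP90AB1 had an amplitude of only 0.11 ± 0.03 with a peak at ZT6.68 (adjusted p = 0.0111), and its highest animal was that of ZT6 at 0.23. It was not called after quantile scaling, body-wide (adjusted p = 0.114) or in periphery (adjusted p = 0.172).

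HSP90AA1 and HSPD1 peaked in the dark phase. HSP90AA1 had an amplitude of 0.13 ± 0.04 and a peak at ZT15.5 (adjusted p = 0.0141), with animals from -0.23 (ZT2) to 0.15 (ZT14). HSPD1 had an amplitude of 0.18 ± 0.06 and a peak at ZT16.4 (adjusted p = 0.0411), with its lowest animal at ZT6 (-0.38) and its highest at ZT22 (0.28). It was not called without the libraries that matched another animal (adjusted p = 0.115) or with an ordinary F test (adjusted p = 0.08), and when 1 animal was left out it passed only without that of ZT10, ZT20 or ZT22. HSPH1, with 0.16 ± 0.06 and a fitted peak at ZT7.86, was not called (adjusted p = 0.0631) but passed without the libraries far from their tissue (adjusted p = 0.029) and without the animal of ZT10 or of ZT22.

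In the 22 brain regions alone 6 of 8 genes were called, against 31.7% of all genes. DNAJB1 (amplitude 0.49 ± 0.05, ZT6.24), BAG3 (0.52 ± 0.06, ZT5.95), HSPB1 (0.67 ± 0.09, ZT7.05) and FKBP4 (0.39 ± 0.05, ZT8.49) peaked in the light phase. HSPH1 was called here, at 0.25 ± 0.06 and ZT9.97 (adjusted p = 0.0101), and HSP90AA1 had 0.22 ± 0.05 at ZT15.8 (adjusted p = 0.00742). HSP90AB1 (adjusted p = 0.18) and HSPD1 (adjusted p = 0.16) were not called. HSPD1 passed without the animal of ZT20, and HSP90AB1 without the libraries far from their tissue (adjusted p = 0.0319) or those that matched another animal (adjusted p = 0.0465).

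In the 35 peripheral tissues 6 of 8 genes were called as well, against 61.3% of all genes. HSPB1 had an amplitude of 1.04 ± 0.15, BAG3 0.52 ± 0.08, FKBP4 0.39 ± 0.05 and DNAJB1 0.37 ± 0.08, with peaks between ZT5.46 and ZT7.36. HSP90AB1 (0.13 ± 0.04, ZT6.03) and HSPD1 (0.23 ± 0.06, ZT17.6, adjusted p = 0.0174) passed, and HSPH1 (adjusted p = 0.36) and HSP90AA1 (adjusted p = 0.405) did not. Without the libraries that matched another animal HSPD1 was not called in periphery (adjusted p = 0.103). Without the animal of ZT6 neither HSPD1 (adjusted p = 0.0679) nor HSP90AB1 (adjusted p = 0.0507) was called there.

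Within animals, the brain curve was then tested against the peripheral curve, and 0 of 8 genes passed in limma, against 5.67% of all genes. Unadjusted p-values were under 0.05 for 4 genes: HSPB1 (adjusted p = 0.11), HSPH1 (adjusted p = 0.14), HSPD1 (adjusted p = 0.191) and HSP90AA1 (adjusted p = 0.202). A call in one place and not in the other, as for HSPH1, is therefore not shown to be a difference between them. FKBP4 and HSPB1 deviated to the same side in brain and periphery in 12 of 12 animals, DNAJB1 in 11, BAG3 in 10, HSP90AA1, HSP90AB1 and HSPD1 in 9 and HSPH1 in 8.

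**Figure D3:**
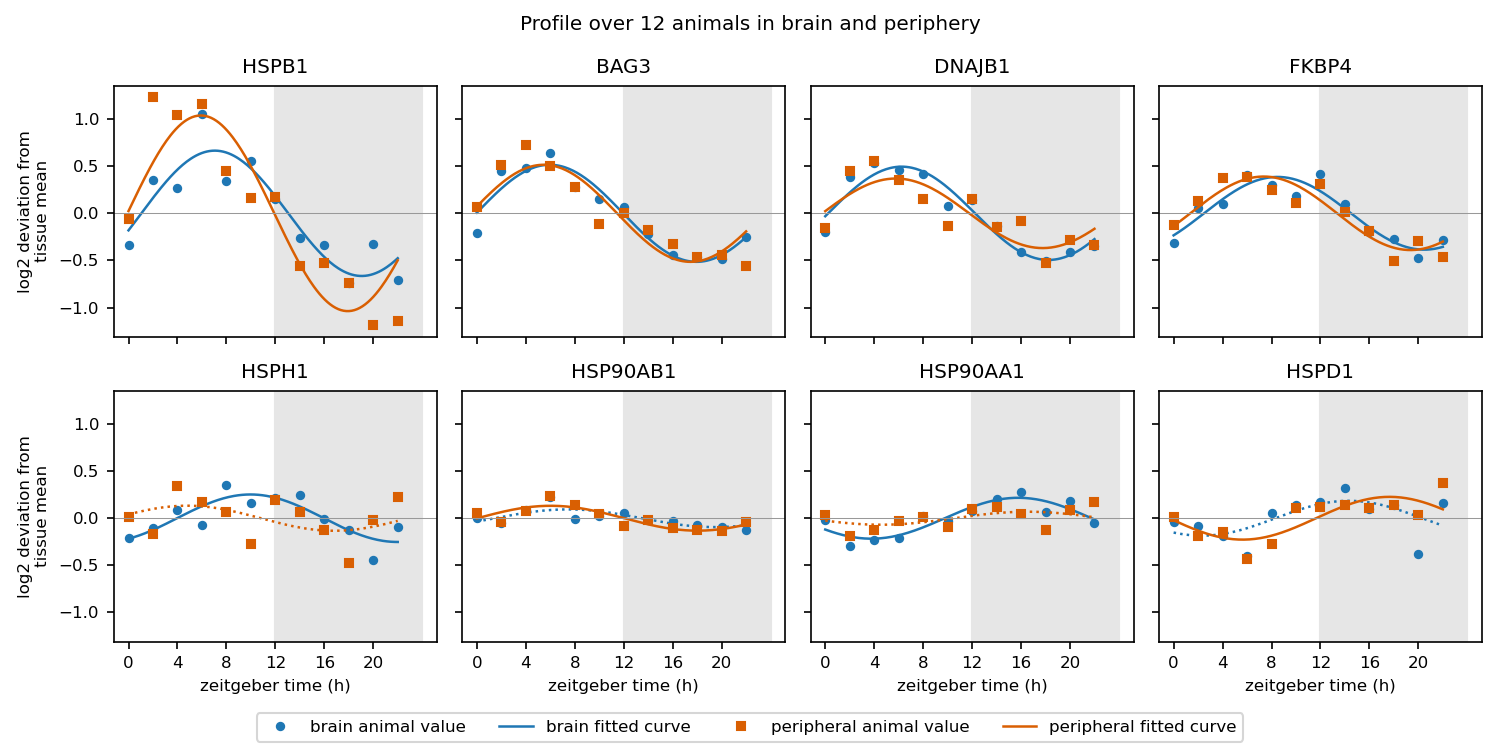
Mean log2 deviation from the tissue means for each of the 12 animals over zeitgeber time, in brain (circles) and periphery (squares), with fitted 24 h curves, solid where the adjusted p was under 0.05 and dotted otherwise, and the dark phase shaded. HSPB1, BAG3, DNAJB1 and FKBP4 are high from ZT4 to ZT8 and low from ZT16 on, and the called curves of HSP90AA1 (brain) and HSPD1 (periphery) peak in the dark phase.

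These profiles moved with a measure shared by many genes. The first principal component of the library deviations over 12051 genes, here called the library axis, held 29.3% of their variance, and its animal means ran from 1.03 at ZT4 down to -1.08 at ZT22. Over the 767 libraries the deviations correlated with it at r = 0.79 for HSPB1, 0.73 for BAG3, 0.57 for DNAJB1, 0.57 for FKBP4, 0.37 for HSP90AB1, -0.26 for HSPH1, -0.33 for HSP90AA1 and -0.48 for HSPD1. The genes that peaked in the light phase are thus those with positive correlations, apart from HSPH1, and both dark-phase genes have negative ones. Of 26 cell type and handling markers tested body-wide 7 were called, against 63.1% of all genes. They were GFAP, DES, CIDEC and JUN with a light-phase peak and PTPRC, KRT10 and EGR1 with a dark-phase peak. What the axis stands for, and the part of these markers in the profiles, was not tested.

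With the axis as a covariate 0 of 8 genes were called body-wide in limma, and 0.174% of all genes. The axis followed the time of day itself, so this fit cannot separate a 24 h curve from the axis. A lost call therefore does not show that a rhythm is absent. Standard errors of the amplitude also grew, for DNAJB1 from 0.06 to 0.12. At an unadjusted p under 0.05 stood FKBP4 (p = 0.000495) and HSP90AA1 (p = 0.0373), 2 of 8, beside 1230 of all 12055 genes. The amplitude of HSPB1 dropped from 0.87 to 0.08 ± 0.08, that of BAG3 to 0.13 ± 0.08 and that of DNAJB1 to 0.10 ± 0.12. FKBP4 had 0.24 ± 0.06 with a peak at ZT9.36 (adjusted p = 0.108). HSPH1 stood at 0.31 ± 0.14 (ZT6.92, adjusted p = 0.535). For the dark-phase genes the fitted peak was at ZT10.2 ± 1.67 h (SE) for HSP90AA1 (0.09 ± 0.04, adjusted p = 0.448). For HSPD1 it was at ZT11.3 ± 2.98 h (0.07 ± 0.06, adjusted p = 0.865). Neither was called, so a move into the light phase is not shown. In brain and in periphery 0 of 8 were called with the axis in limma, against 0.0474% and 0.296% of all genes. Unadjusted p-values under 0.05 remained for 5 genes in brain, the smallest for HSPH1 (p = 0.000164) and FKBP4 (p = 0.000313), and for 1 in periphery, FKBP4 (p = 0.0238), beside 1636 of all 12660 genes in brain and 1324 of all 11837 in periphery. With a linear trend over the collection order instead, FKBP4, BAG3 and HSPB1 stayed called body-wide, 3 of 8 against 11.6% of all genes.

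**Figure D4:**
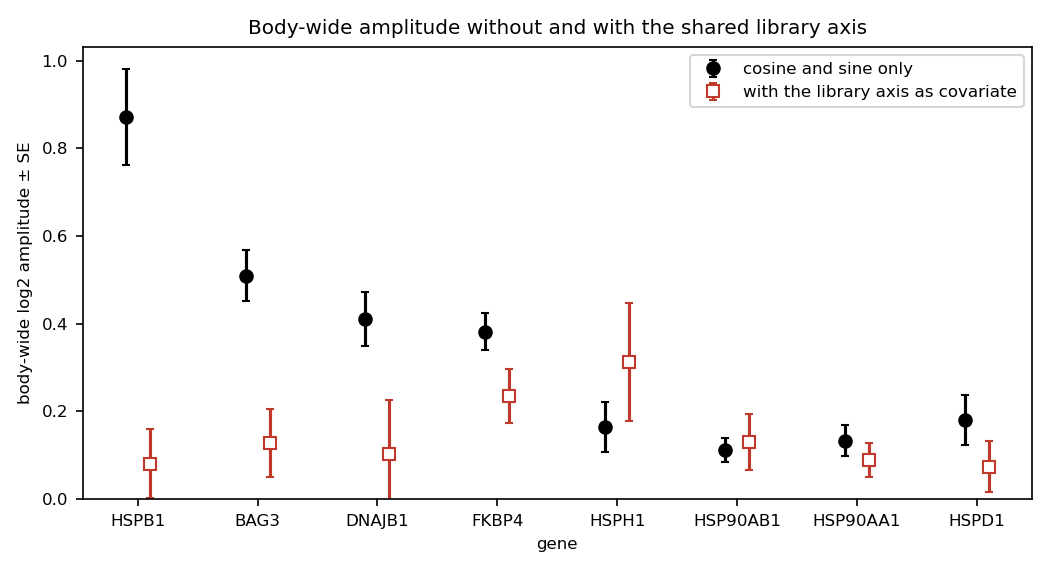
Body-wide log2 amplitude ± SE of each gene from the fit with cosine and sine only (filled circles) and with the library axis added as a covariate (open squares). HSPB1 goes from 0.87 to 0.08, whereas FKBP4 goes from 0.38 to 0.24 and HSPH1 from 0.16 to 0.31. The axis itself follows the time of day, so the fit cannot separate a 24 h curve from it.

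In single tissues 493 pairs of a gene and a tissue were tested, and 58 were called, against 6.56% of all pairs of a gene and a tissue. HSPB1 was called in 14 of 45 tissues, FKBP4 in 12 of 64, BAG3 and DNAJB1 in 11 each, HSPD1 in 5, HSP90AA1 in 3, and HSP90AB1 and HSPH1 in 1 each. Of the 58 calls, 15 stood in every fit with 1 animal left out, and the count ranged from 25 to 67 over these fits. It fell by over 1.5 times without the animal of ZT16 (25), ZT4 (26), ZT6 (26), ZT20 (32) or ZT12 (34). The calls were spread over 18 tissues. The fitted peak fell in the light phase in 64 of 64 tissues for DNAJB1, 59 for BAG3, 59 for FKBP4 and 40 of 45 for HSPB1, but in 15 for HSPD1 and 20 for HSP90AA1. Of all pairs of a gene and a tissue 54.0% peaked there. The tissues share their 12 animals, so these counts are not independent of each other.

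**Figure D5:**
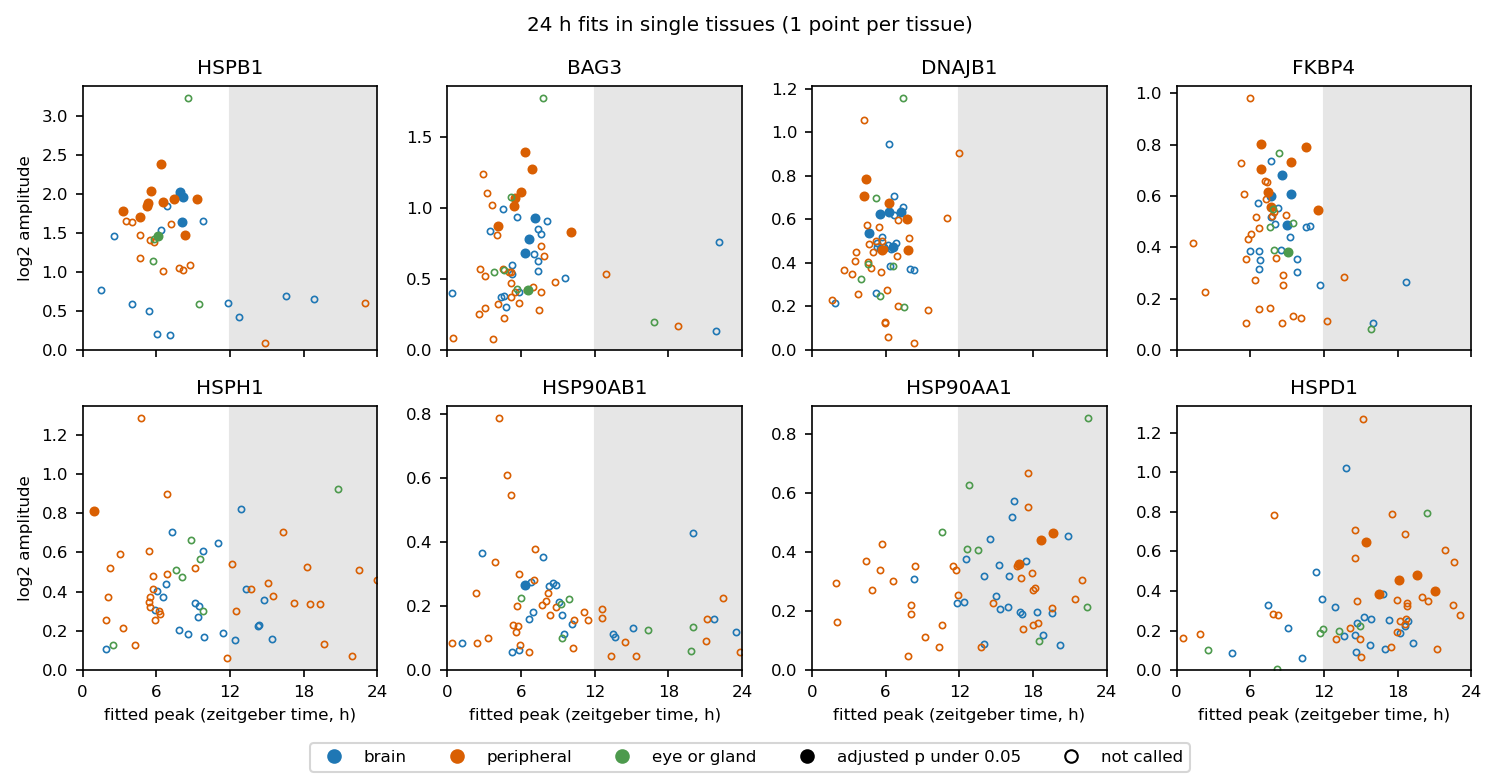
Fitted peak time and log2 amplitude of each gene in each tissue, 1 point per tissue, coloured by tissue class and filled where the adjusted p was under 0.05, with the dark phase shaded. DNAJB1 points all lie in the light phase, and the called HSPD1 and HSP90AA1 points lie in the dark phase.

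The medial globus pallidus had 4 of 8 genes called, against 17.4% of its genes. HSPB1 had its smallest p there: libraries ran from 0.28 FPKM at ZT18 to 14.9 FPKM at ZT6 and ZT10, an amplitude of 2.02 ± 0.16 with a peak at ZT7.93 (adjusted p = 0.000522). All 6 libraries from ZT2 to ZT12 were above those from ZT16 to ZT22. BAG3 in the same region ran from 7.44 FPKM at ZT0 to 23.1 FPKM at ZT6 (amplitude 0.78 ± 0.11, ZT6.64, adjusted p = 0.00859). Both calls held in every fit with 1 animal left out. In the lateral globus pallidus BAG3 (0.68 ± 0.11, ZT6.36, adjusted p = 0.0302) was called too, and in the mammillary body HSPB1 (1.64 ± 0.21, ZT8.08, adjusted p = 0.0316). In these 2 regions 4 and 3 of 8 genes were called, against 9.27% and 9.34% of their genes. BAG3 in the arcuate nucleus had 0.84 ± 0.14 at ZT3.51 and did not pass (adjusted p = 0.209), nor did HSP90AB1 in the medial globus pallidus (0.27 ± 0.08, ZT8.60, adjusted p = 0.0618).

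Libraries labelled adrenal medulla had 3 of 8 genes called, against 24.5% of their genes. FKBP4 ran there from 25.8 FPKM at ZT18 to 95.3 FPKM at ZT8 (0.80 ± 0.13, ZT6.89, adjusted p = 0.008). HSPB1 ran from 0.15 FPKM at ZT20 to 18.6 FPKM at ZT6 (2.04 ± 0.26, ZT5.60, adjusted p = 0.00679). Both genes were higher from ZT2 to ZT6 than from ZT14 on, and both calls held in every fit with 1 animal left out, including the fit without the ZT0 library that was high in medullary genes. Without the 3 libraries far from the tissue median, FKBP4 (0.94, adjusted p = 0.032) and HSPB1 (1.61, adjusted p = 0.0434) were still called. FKBP4 had a like amplitude in axillary lymph nodes, 0.73 ± 0.12 at ZT5.27, without passing (adjusted p = 0.141).

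In the visual cortex DNAJB1 ran from 18.9 FPKM at ZT22 to 48.1 FPKM at ZT4 (0.63 ± 0.09, ZT7.22, adjusted p = 0.031) and FKBP4 had 0.68 ± 0.12 at ZT8.56 (adjusted p = 0.031). Each of these 2 calls held in 4 of the 12 fits with 1 animal left out. In this region 3 of 7 genes were called, against 20.4% of its genes. The lowest DNAJB1 libraries were those of ZT18 to ZT22, and those of ZT2 to ZT12 were all above them. The smallest p of DNAJB1 was in the habenula (0.49 ± 0.07, ZT6.83) without passing the threshold (adjusted p = 0.0982). In the suprachiasmatic nuclei, the central clock of the brain, DNAJB1 ran from 26.2 FPKM at ZT18 to 65.2 FPKM at ZT6 (0.52 ± 0.09, ZT5.75, adjusted p = 0.0807).

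In the heart 4 of 8 genes were called, against 42.4% of its genes, and 2 of them ran the other way. HSPD1 went from 21.4 FPKM at ZT4 to 38.9 FPKM at ZT22 (0.39 ± 0.08, ZT16.5, adjusted p = 0.0176), with every library from ZT12 on above every library up to ZT10. HSP90AA1 went from 273 FPKM at ZT4 to 542 FPKM at ZT20 (0.36 ± 0.08, ZT16.9, adjusted p = 0.019). BAG3 in the same hearts went from 7.21 FPKM at ZT22 to 91.0 FPKM at ZT4 (1.11 ± 0.26, ZT6.03, adjusted p = 0.0219). HSPD1 was also called in the thyroid, from 9.45 to 22.4 FPKM (0.46 ± 0.10, ZT18.1, adjusted p = 0.0117), and in the gastrocnemius (0.40 ± 0.11, ZT21.0, adjusted p = 0.0485). In the thyroid 4 of 7 genes were called, against 44.2% of its genes, and in the gastrocnemius 2 of 8, against 20.5%. Since all thyroid libraries matched the animal of the preceding time, the thyroid peak time is uncertain by that step of 2 h. With 1 animal left out, the HSPD1 call held in 12 of 12 fits in the thyroid, in 10 in the heart and in 2 in the gastrocnemius.

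The stomach fundus had the most calls, 6 of 8 genes, against 34.4% of its genes, and its libraries likewise matched the preceding animal. HSPH1 was called only in the bladder (0.81 ± 0.15, ZT0.91, adjusted p = 0.0195), and HSP90AB1 only in the putamen (0.27 ± 0.07, ZT6.34, adjusted p = 0.0478). The bladder call held in 12 of 12 fits with 1 animal left out and the putamen call in 3. Of all genes 21.9% were called in the bladder and 13.1% in the putamen. The smallest p of HSPH1 lay elsewhere, in the pons (0.65 ± 0.10, ZT11.0), cerebellum (0.71 ± 0.11, ZT7.28) and liver (1.29 ± 0.24, ZT4.73), and that of HSP90AA1 in the pons (0.38 ± 0.08, ZT12.5) and pancreas (0.34 ± 0.07, ZT5.56), with adjusted p from 0.094 to 0.201. In the liver HSP90AB1 (0.79 ± 0.18, ZT4.19, adjusted p = 0.216) and HSPH1 had their largest amplitudes without passing.

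The liver libraries of ZT0 and ZT6 lay far from their tissue's median (r = 0.661 and 0.608) and carried brain markers. Neuron markers summed to 788.6 and 923.2 FPKM in them, against 1.22 to 3.93 FPKM in the other 10 liver libraries, and hepatocyte markers to 36884 and 14514 FPKM, against 190900 FPKM or more. These 2 libraries had the highest HSPH1 (73.9 and 121.8 FPKM) and HSP90AB1 (344.7 and 453.8 FPKM) of the liver and its lowest HSPD1 (16.5 and 13.3 FPKM). Without them the liver amplitudes were 1.07 ± 0.21 for HSPH1 (adjusted p = 0.116) and 0.59 ± 0.08 for HSP90AB1 (adjusted p = 0.0509), while that of HSPD1 was 0.21 in place of 0.57. The ileum, kidney medulla and lungs also had libraries with neuron marker sums of up to 975, 1277 and 717 FPKM. Over all tissues, 59 of 485 pairs were called without libraries far from their tissue.

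With the library axis as covariate 2 of the 493 pairs were called, against 0.175% of all pairs, and both were in the retina, where 1.72% of genes passed. HSPH1 ran there from 25.4 FPKM at ZT0 to 82.4 FPKM at ZT12 (amplitude with the axis 0.77 ± 0.07, peak at ZT7.71, adjusted p = 0.00541). FKBP4 ran from 44.7 FPKM at ZT20 to 105 FPKM at ZT6 (0.33 ± 0.05, ZT9.46, adjusted p = 0.0197). Without the axis neither passed in the retina (adjusted p = 0.143 and 0.223). These 2 pairs were picked out after their values were seen.

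The genes were also compared by how they moved together. Over the 767 libraries, deviations from the tissue mean correlated between DNAJB1 and BAG3 (r = 0.63), DNAJB1 and FKBP4 (r = 0.62), BAG3 and HSPB1 (r = 0.58) and HSPH1 and HSP90AA1 (r = 0.50). After the library axis was removed BAG3 and HSPB1 were at r = 0.01, while FKBP4 and HSPH1 rose from 0.36 to 0.63, HSP90AA1 and HSP90AB1 from 0.37 to 0.57 and DNAJB1 and HSPH1 from 0.22 to 0.46. The libraries share animals, depth and tissue content, so these values are descriptions. Differences between tissues held 57.1% of the variance of DNAJB1 and 81.7% of that of HSP90AB1. Differences between animals held 18.1% for DNAJB1, 13.1% for FKBP4 and 9.07% for HSPB1, and 1.77% to 6.67% for the other 5 genes.

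Likeness was also taken over the 12 body-wide animal values. For FKBP4, DNAJB1 and HSPH1 the 3 most alike genes included others of the chaperone network, and for the other 5 they did not. FKBP4 was most like STIP1, the adaptor between HSP70 and HSP90 (r = 0.97), then AHSA1 (r = 0.97) and ITGA10. DNAJB1 was most like SERPINH1 (r = 0.98) and BAG3 (r = 0.97). HSPH1 was most like DNAJA1 (r = 0.86), a further J-domain partner of HSP70, then CIPC and KIAA0907. HSPD1 was closest to TBCCD1 (r = 0.97), ARHGAP20 and HACD2, and HSP90AA1 to PIGU (r = 0.92), PBX3 and TMPO. HSP90AB1 was closest to SMOC1 (r = 0.94), NXPH4 and FANCE, BAG3 to MIIP (r = 0.99), TLE3 and SLC27A4, and HSPB1 to RBM10 (r = 0.99), MRPL38 and TP53I13. With 12 animals that share the library axis, these values are descriptions.

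Among other genes of the network 40 of 61 tested were called body-wide, against 63.1% of all genes, so this share lies near the background. HSF1 had an amplitude of 0.65 ± 0.08 and a peak at ZT6.56 (adjusted p = 0.000289), HSF4 peaked at ZT5.53 and DAXX, an HSF1 regulator, at ZT6.97, whereas HSF2 peaked at ZT18.6. Of 12 HSP90 co-chaperones 10 were called, 8 with a light-phase peak, among them CDC37 (0.57, ZT6.18), FKBP8 (0.84, ZT5.76) and FKBP5 (0.68, ZT3.80). Of 20 HSP70-system genes 10 were called, 4 in the light phase, such as STUB1 (ZT6.02) and HSPBP1 (ZT5.97), and 6 in the dark phase, such as HSPA13 (ZT18.7), HSPA14 (ZT19.8) and ST13 (ZT16.4).

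Mitochondrial chaperones and proteases were likewise split, with 4 light-phase and 2 dark-phase calls among 8, where 63.1% of all genes were called. LONP1 (ZT5.83), CLPP (ZT5.94) and TRAP1 (ZT4.85) peaked in the light phase, and HSPA9 (0.18 ± 0.03, ZT19.1) and CLPX (ZT17.9) in the dark phase, as HSPD1 did. Of the 8 subunits of the cytosolic CCT chaperonin 5 were called, CCT3 and CCT7 in the light phase and TCP1, CCT8 and CCT6A in the dark phase. The other HSF1-induced genes DEDD2, IER5, SERPINH1 and HMOX1 peaked between ZT5.48 and ZT6.06, 4 of 5 tested. Peaks at these times were common: of all genes called body-wide 55.8% peaked at ZT4 to ZT8 and 36.6% at ZT16 to ZT20. Of 3 genes listed as small heat shock proteins only HSPB8 was called (ZT8.04). With the library axis as covariate 0 of these 61 genes were called body-wide in limma, against 0.174% of all genes. At an unadjusted p under 0.05 stood 9 of the 61, beside 1230 of all 12055 genes.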

How the data were processed

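The series was measured by RNA sequencing of polyA RNA. The authors deposited 1 table of FPKM values per gene and library. STAR, featureCounts and DESeq2 are named in the submitters' processing notes, without versions. The genome build is not given in the sources used here. Whole reads were recovered from the FPKM steps for 26546 of the 26546 rows above 0 (100.0%, within 0.01 read) and used only for depth. Values were taken as log2(FPKM + 0.5), so folds of low genes are understated. Genes averaging at least 1 FPKM in a tissue (for averages over tissues, in a share of at least 0.5 of them) were tested with limma 3.58.1 in R 4.3.3, with a variance trend and Benjamini-Hochberg adjustment at 0.05 over all genes tested. The tests were tested on simulated data with independent noise for each gene and no library axis. Those data do not show how the tests behave where such an axis is present. Tissues were paired by labelled animal, as the labels state 1 animal per time. The members, the gene lists and the tests were chosen with earlier results of these data known. All members were named. Of each list at most 6 called genes were named, by smallest p. Of each member the 3 highest and 2 lowest tissues, and the 3 tissues with the smallest p, were named. Some genes that this rule names are not reported here. Other tissues were named after their values were seen, as were TH and the retina pairs. No sequences are printed, since none were in the sources used here.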

Additional observations from a re-analysis of the deposited data

How the results depend on the processing

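Other pseudocounts (0.1 and 1), filters (5 and 0.1 FPKM) and quantile scaling kept each count of called genes within 1.5 times of the reported one. With the library axis as covariate the counts were 0 body-wide, 0 in brain, 0 in periphery and 2 of 493 in single tissues. The axis follows the time of day, so these counts do not show that rhythms are absent. With a linear trend they were 3, 0, 1 and 25, and with an ordinary F 25 in single tissues. Over all genes the linear trend left 1396 of 12055 body-wide, 5 of 12660 in brain, 1180 of 11837 in periphery and 23126 of 793508 pairs. The share of all genes under the ordinary F is not reported here. Leaving out 1 animal gave 6 to 8 genes body-wide, 6 to 7 in brain, 4 to 6 in periphery, 0 for the brain-periphery difference in rhythm, 7 to 8 and 8 for both levels, and 25 to 67 pairs in single tissues. Without the replicate block, that is without pairing tissues by animal, the counts were 0 for the rhythm difference, 7 for brain against periphery and 7 for striated muscle. Directions turned in 4 cases, counting a fitted peak over 6 h away as a turn. HSP90AA1 in striated muscle changed sign under quantile scaling (-0.39). The others were fits with the axis as covariate: HSPD1 in brain (amplitude 0.23 ± 0.13, SE), HSP90AA1 in periphery (0.13 ± 0.08) and DNAJB1 in periphery (0.04 ± 0.085, peak SE 8.14 h). None of these fits was called, so their peak times are not determined. The causes were not tested. Under quantile scaling 3555 of 8501 genes called body-wide peaked in the light phase, against 4481 of 7610. Leaving out libraries with the suffix approx, which the sources do not explain, those that matched another animal, the tissues labelled adrenal cortex, adrenal medulla and smooth muscle, or, in single tissues, libraries far from their tissue, was added after the data were seen. Without the 3 labelled tissues each count over brain, periphery or all tissues stayed within 1.5 times. HSPB1 had the fewest reads and, at its low level, was tested in 45 of 64 tissues.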
